A study of Homo sapiens with 9 samples.

Results

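Accessible chromatin regions were collected that were found in all 6 wild type and heterozygous libraries of K562 cells and in none of the 3 libraries homozygous for a STAG2 stop mutation. From each of the 9 deposited peak lists the 50000 strongest peaks on chromosomes 1 to 22 and X, by −log10 p, were taken. Peaks that overlapped by at least 1 bp were merged across libraries into regions. Of 106131 merged regions, 1653 (1.56%) met this rule, which is 6.14% of the 26916 regions found in all 6 wild type and heterozygous libraries. These 1653 are called the missing regions here. The regions were chosen by the −log10 p ranks that decide the presence or absence of a strong peak, so these counts are a description with no test, and nothing is read from their share. A missing region can still hold a weaker peak in a homozygous list, and most did.

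The assay was ATAC-seq, in which the transposase Tn5 inserts sequencing adapters into open DNA, on 50000 cells per replicate with single-end reads of 100 bp. K562 is an established human line from a chronic myeloid leukaemia with erythroid and megakaryocytic features. There were 3 genotypes with 3 libraries each: the parental cells without a STAG2 mutation, and lines made with CRISPR-Cas9 that carry STAG2 R614* +/- or STAG2 R614* -/-. Each mutant genotype is 1 line, and by the labels the homozygous cells grew attached and were lifted with trypsin, so genotype, line and attached growth cannot be told apart. The titles of the homozygous libraries name the line STAG2nullA. Nothing in the labels says that replicates came from separate cultures, so the spread between them may be technical. The lists do not show the mutated base, and genotypes were taken from the labels.

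STAG2 belongs to cohesin, a ring of proteins that folds chromosomes into loops. Cohesin moves along DNA and is held where the zinc finger protein CTCF is bound, and it also gathers at active enhancers. Open regions in a blood line such as K562 are mainly promoters, distal enhancers bound by GATA, TAL1 and RUNX factors, and CTCF sites.

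Several stretches of sequence are shown for strong missing regions, because these are among the strongest members in the 6 other libraries. All sequences are from the plus strand of GRCh37, and capitals mark matches to the searched motifs on either strand. The gene desert region spans chr10:66627289-66627528, the region on the side of MAP2 spans chr2:209850393-209850632, the ROBO2 intron spans chr3:77229193-77229432 and the PTPRC intron spans chr1:198619539-198619778. The capitals are a GATA match with a TAL1 part and a further GATA match in the gene desert, GATA matches and a RUNX match beside MAP2, a RUNX match and a pair of AP-1 matches in ROBO2, and a GATA match in PTPRC.
desert region: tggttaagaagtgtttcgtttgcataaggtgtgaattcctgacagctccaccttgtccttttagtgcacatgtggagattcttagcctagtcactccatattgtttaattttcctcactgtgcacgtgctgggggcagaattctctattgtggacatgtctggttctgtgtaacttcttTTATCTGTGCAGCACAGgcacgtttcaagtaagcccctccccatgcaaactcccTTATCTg
MAP2 side: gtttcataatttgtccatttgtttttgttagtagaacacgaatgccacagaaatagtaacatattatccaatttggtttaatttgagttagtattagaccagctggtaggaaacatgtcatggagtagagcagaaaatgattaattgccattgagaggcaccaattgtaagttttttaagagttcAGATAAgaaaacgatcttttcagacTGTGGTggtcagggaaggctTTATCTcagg
ROBO2 intron: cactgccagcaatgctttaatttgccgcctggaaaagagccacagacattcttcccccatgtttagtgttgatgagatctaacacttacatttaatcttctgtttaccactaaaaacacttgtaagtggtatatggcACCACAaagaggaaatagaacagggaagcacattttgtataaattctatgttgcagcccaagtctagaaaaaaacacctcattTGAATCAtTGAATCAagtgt
PTPRC intron: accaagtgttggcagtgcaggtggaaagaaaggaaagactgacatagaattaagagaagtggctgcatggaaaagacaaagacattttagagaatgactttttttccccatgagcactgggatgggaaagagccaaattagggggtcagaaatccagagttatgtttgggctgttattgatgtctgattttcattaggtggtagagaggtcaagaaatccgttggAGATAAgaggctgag

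Further stretches hold a CTCF motif, in capitals, because CTCF sites are where cohesin is held. The GRIP1 intron (chr12:67087826-67087925) and the STARD3NL exon region (chr7:38255451-38255550) are the strongest missing regions with this motif. The regions on chromosome 14 (chr14:106877477-106877576) and chromosome X (chrX:112503816-112503915) are the CTCF motif regions that had no peak in any homozygous full list.
GRIP1 intron: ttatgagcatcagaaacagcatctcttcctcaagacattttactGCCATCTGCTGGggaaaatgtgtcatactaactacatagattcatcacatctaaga
STARD3NL region: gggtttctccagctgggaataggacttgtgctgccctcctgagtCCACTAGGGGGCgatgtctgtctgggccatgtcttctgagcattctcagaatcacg
chromosome 14 region: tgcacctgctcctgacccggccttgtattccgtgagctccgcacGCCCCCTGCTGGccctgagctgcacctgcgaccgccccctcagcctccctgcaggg
chromosome X region: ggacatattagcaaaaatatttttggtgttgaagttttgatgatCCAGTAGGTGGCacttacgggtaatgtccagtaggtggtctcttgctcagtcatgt

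The deposited lists held between 181579 and 319986 peaks, and the 50000 strongest were 15.6% to 27.6% of a list. The read depth is unknown. Wild type replicate 3 and heterozygous replicate 1 shared 46.0% of the shorter list's peaks at the same start and end, and wild type replicates 1 and 2 shared 23.2%. At 430 missing regions (26%) the best peak of the first pair was the same interval, and at 127 (7.68%) that of the second. With 1 library kept of each such pair, 2037 regions met the rule, of which 93.2% had a peak in a homozygous full list, close to the 93.3% for all libraries. Of the K562 marker genes, TAL1, LMO2, HBE1 and TFRC had a peak among the 50000 strongest within 1 kb of a start in all 9 libraries, NFE2 in 8, EPOR in 7, and GATA1 and KLF1 in 0. Among markers of other cell types, CD3E, CD2, CD79A, MS4A1, CD14, CSF1R and KRT5 had none, CDH1 had one in 1 library and DCN in 4, and CD3D and LYZ had one in 7. COL1A1, COL1A2, PDGFRB and EPCAM had one in all 9 libraries, the homozygous ones included.

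The same rule turned to the other genotypes gave 48 regions (0.0452% of all merged regions) missing only from wild type and 105 (0.0989%) missing only from heterozygous libraries. Both counts need the lists of wild type replicate 3 and heterozygous replicate 1 to differ. These lists shared 46.0% of the shorter list's peaks at the same start and end. The 48 and 105 are therefore no even measure for the homozygous count, and the part of the shared peaks was not tested. Of the 26916 regions found in all 6 wild type and heterozygous libraries, 19221 were also in all 3 homozygous libraries, 3735 in 2 of them and 2307 in 1.

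The missing regions were mostly distal and of middling strength. Their median width was 733 bp, against 1248 bp for the 19221 regions of all 9 libraries and 552 bp for all merged regions. A merged region spans all its peaks, so regions of more lists tend to be wider. Regions of the 6 lists with 1 or 2 homozygous lists had medians of 787 and 886 bp. Only 95 of them (5.75%, 95% Wilson interval 4.72 to 6.98, counting error only) lay within 1 kb of the start of a protein-coding transcript, while 42.4% of the regions of all 9 libraries and 13.7% of all merged regions did. The share was also low in some other regions that were not in every library. It was 6.08% of regions present only in homozygous libraries, 6.67% of those missing only from heterozygous libraries and 7.15% of those in 1 homozygous list beside the 6 others. It was higher, 12.6%, in regions of 2 homozygous lists beside the 6 others, and 27.1% (13 of 48) in those missing only from wild type. The median distance of the missing regions to such a start was 36.6 kb. Introns of coding genes held 728 (44%), coding gene exons 113 (6.84%), non-coding genes 257 (15.5%), and 555 (33.6%) were intergenic. Over all merged regions the shares were close to these, at 40.6%, 9.47%, 15.8% and 34.1% in the same order.

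Within each list the missing regions ranked behind the regions of all 9 libraries. Their median rank was 27294, 26848 and 24441 in wild type replicates 1 to 3 and 24598, 25068 and 24303 in heterozygous replicates 1 to 3. Regions of all 9 libraries had median ranks between 12060 and 12360 in the same lists. The fold enrichment is a linear ratio over local background from the authors' peak caller. Fold values of different libraries are set side by side here without rescaling, and the read depth is unknown. The median fold enrichment over the missing regions was 5.98, 6.11 and 6.38 in wild type and 6.35, 6.0 and 6.08 in heterozygous libraries. Over regions of all 9 libraries it was 6.99 to 7.18. The upper end was not empty: between 148 and 230 missing regions per list were among its 10000 strongest peaks.

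The share of regions that were missing fell steeply with strength. Strength was taken as the weakest rank of a region over the 6 wild type and heterozygous lists. Among the 1488 regions within the first 5000 ranks, 4 were missing (0.269%, Wilson 0.105 to 0.689). The share was 3.83% for weakest ranks of 20001 to 30000 and 14.9% (817 of 5480) for 40001 to 50000. The last class holds 49.4% of the missing regions. Just inside the limit lay 96 missing regions with a weakest rank of 49001 to 50000, and 63 whose best homozygous rank was 50001 to 51000. Just outside it lay 57 regions that failed the rule through 1 homozygous list in which they ranked 49001 to 50000.

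**Figure D1:**
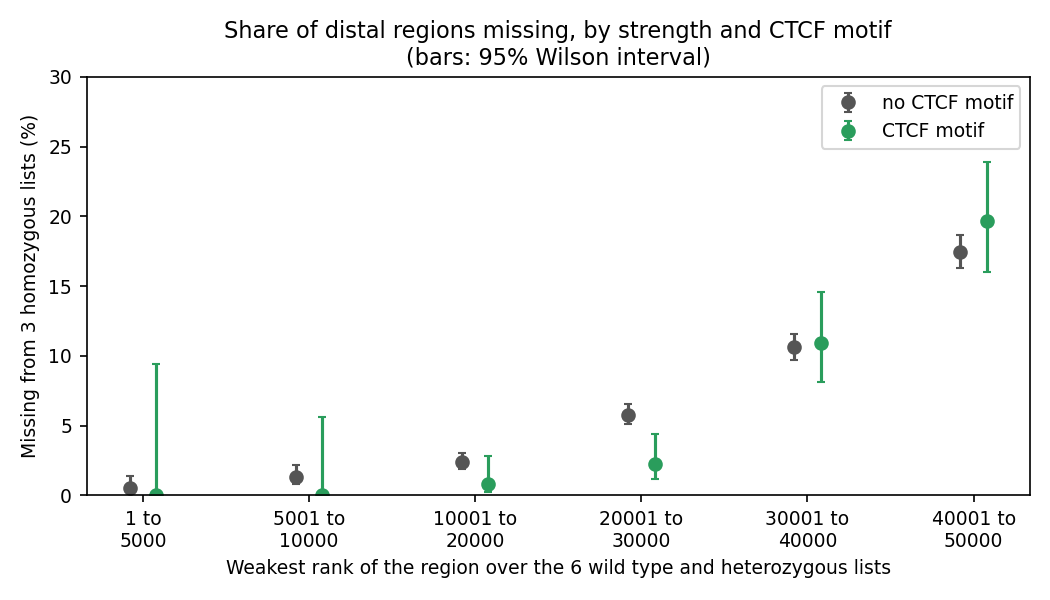
Percentage of distal regions (over 1 kb from a coding start) found in all 6 wild type and heterozygous libraries that were missing from all 3 homozygous libraries, by the weakest rank over the 6 lists, with and without a CTCF motif. Points are percentages of regions and bars are 95% Wilson intervals for counting error; both series rise from below 1% in the strongest class to 17.4% without and 19.6% with the motif in the weakest.

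Most missing regions kept a weaker peak in the homozygous cells. A homozygous full list held a peak at 1542 of the 1653 regions (93.3%, Wilson 92.0 to 94.4). All 3 full lists held one at 742 regions (44.9%), 2 lists at 515 (31.2%), 1 list at 285 (17.2%) and none at 111 (6.72%, Wilson 5.61 to 8.02). By library, a peak remained at 1096 regions (66.3%) in homozygous replicate 1, 1019 (61.6%) in replicate 2 and 1426 (86.3%) in replicate 3. Replicate 3 had the longest list, with 319697 peaks on chromosomes 1 to 22 and X against 181407 and 198291. Without it, 85.9% of the regions then meeting the rule had a peak in a full list. The part of list length in these shares was not tested.

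Where a peak remained, it ranked past 50000 by the rule. Its median rank was 88214, 88482 and 92478 in homozygous replicates 1 to 3, and its median fold enrichment was 3.44, 3.32 and 3.82. The best homozygous rank was between 50001 and 60000 at 479 regions (29.0%), close to the limit of the rule. At 466 regions (28.2%) all homozygous peaks were absent or past rank 100000. Where a homozygous list had no peak, the nearest peak was a median of 5.73, 5.27 and 2.61 kb away in replicates 1 to 3.

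**Figure D2:**
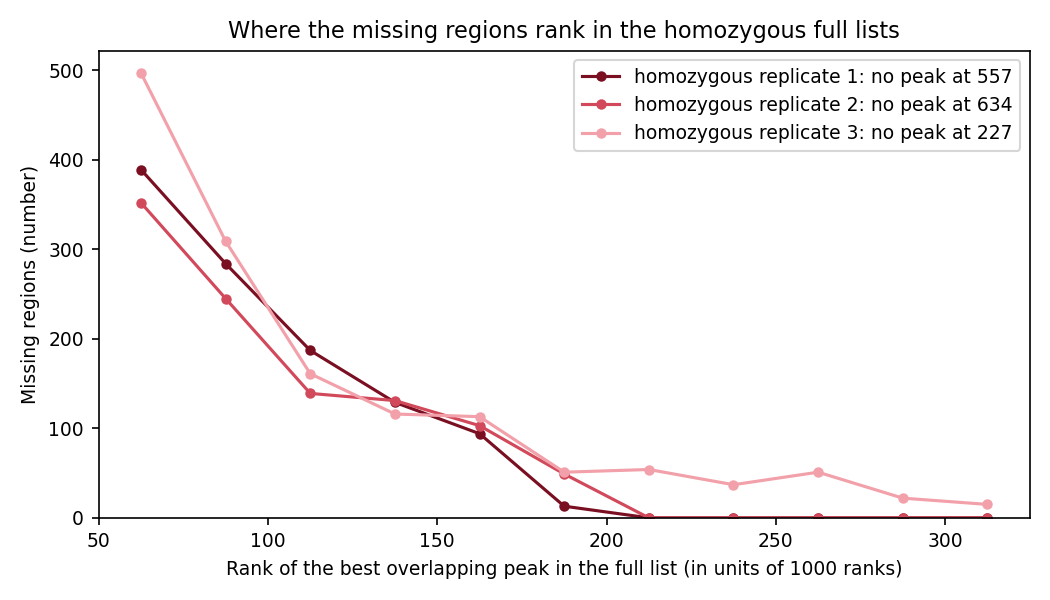
Number of missing regions (vertical axis) by the rank of their best overlapping peak in each homozygous full list (horizontal axis, in units of 1000 ranks, bins of 25000); 1 line per homozygous library. In all 3 libraries the first bin past rank 50000 is the fullest, with 389, 352 and 497 regions, and only replicate 3, the longest list, has regions in the last bins.

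The strongest missing region lay in a gene desert on chromosome 10, at chr10:66626811-66627927, 1346208 bp from the nearest coding start, that of REEP3. Its fold enrichment was 11.4, 11.1 and 10.4 in wild type replicates 1 to 3, 10.2, 18.0 and 11.5 in heterozygous replicates 1 to 3, and 3.28, 3.75 and 3.90 in homozygous replicates 1 to 3. The genotypes with a wild type allele overlapped and the homozygous values lay below both. Its rank was 32 in heterozygous replicate 2 and no worse than 1818 in the other wild type and heterozygous lists, and 73672 at best in the homozygous lists. This is the region whose printed sequence holds a GATA match joined to a TAL1 part, an arrangement known for the erythroid GATA1 and TAL1 complex.

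The intron of ROBO2, the receptor for Slit guidance cues in neurons, held a region at chr3:77228751-77229655 with fold enrichments of 14.7, 16.0 and 9.17 in wild type and 12.9, 18.1 and 11.9 in heterozygous libraries. No homozygous full list had a peak there. Of 6 regions in ROBO2 found in all 6 wild type and heterozygous libraries, 4 were missing and 3 of those had no homozygous peak at all. The other regions without any were chr3:77397267-77398227, at 7.27 to 13.6 fold over the 6 libraries, and chr3:77353064-77354290, at 4.87 to 5.94. Around the strongest of them, a 1 Mb window held 59 to 109 peaks of any strength in wild type and heterozygous full lists and 7, 6 and 20 in the homozygous lists. Peaks were thus few over the whole window in the homozygous lists, and the part of this in the missing regions was not tested. The lists give no copy number of the DNA in the 3 lines, so fewer copies and less open chromatin cannot be told apart here or in the other windows described. This window and those around other named regions were chosen after the values were seen.

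A region 438308 bp from the start of MAP2, which encodes a microtubule-associated protein of neurons, had fold enrichments of 12.3, 12.9 and 9.32 in wild type and 9.19, 12.2 and 11.1 in heterozygous libraries (chr2:209850035-209850890). It too had no homozygous peak in any full list. Its 1 Mb window held 109 to 167 peaks in wild type and heterozygous full lists and 38, 51 and 77 in the homozygous lists.

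Other strong missing regions lay in introns of known genes. In DAB1, an adaptor protein of reelin signalling, the region chr1:58717275-58717792 had 9.25 to 11.9 fold in the 6 libraries and 3.88, 3.0 and 4.65 in the homozygous ones. In NCKAP1, a subunit of the WAVE complex that drives actin assembly, chr2:183858789-183859742 had 7.65 to 9.52 fold, and 3.22, 3.39 and 3.60 in homozygous libraries. These regions were picked as the strongest in the 6 lists and absent from the strongest homozygous peaks, so lower homozygous values follow from the choice. An exon of the antisense RNA SGO1-AS1 held chr3:20946665-20947462 at 7.71 to 10.0 fold, with a peak of 3.41 fold in homozygous replicate 3 alone.

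Further regions among the strongest were intergenic. They were chr21:25293916-25295179, 1685245 bp from MRPL39 (8.93 to 11.6 fold over the 6 libraries), chr1:189118498-189119631, 1324866 bp from BRINP3 (7.91 to 9.18), and chr7:92633904-92634696, 112975 bp from SAMD9 (8.34 to 14.5). Each kept a peak in 2 or 3 homozygous full lists, at 2.75 to 4.77 fold.

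**Figure D3:**
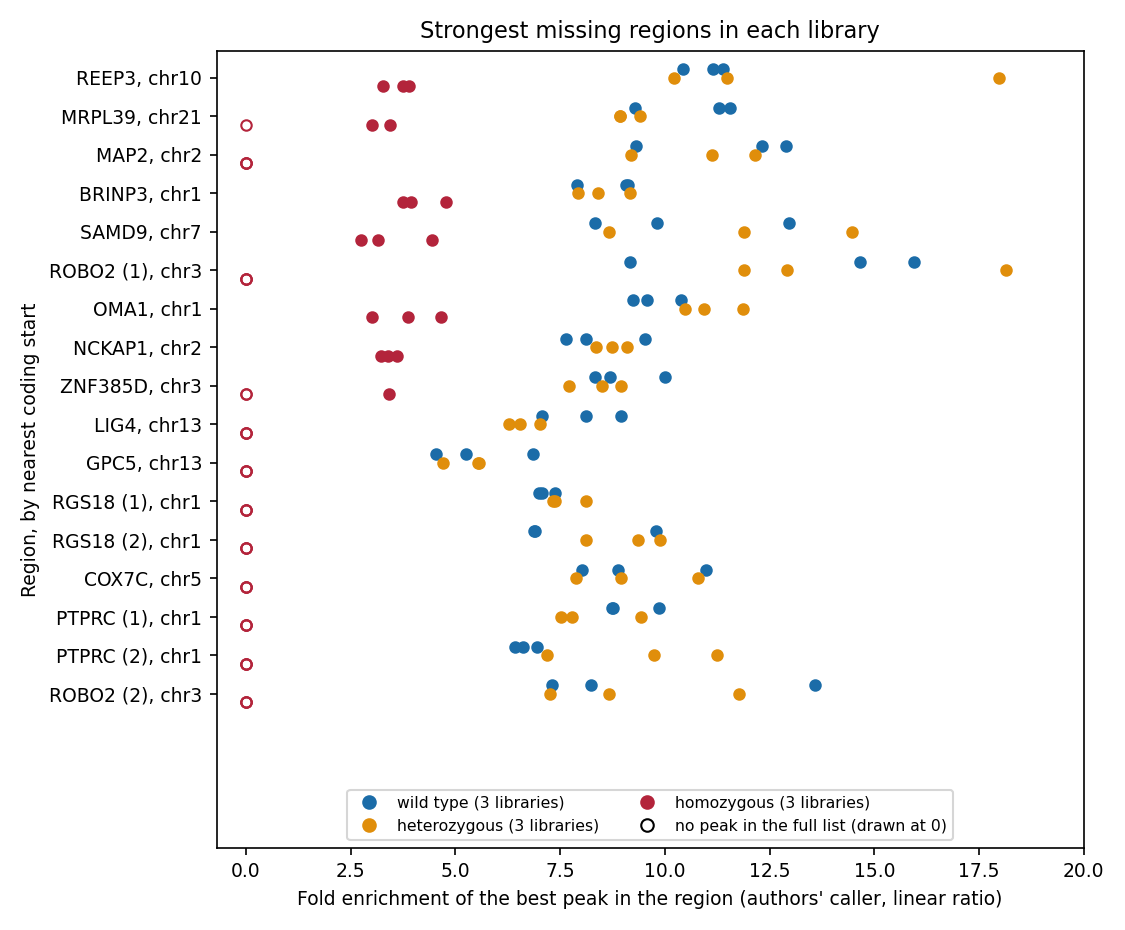
Fold enrichment of the best peak (linear ratio from the authors' caller) in each of the 9 libraries, for the named strongest missing regions and the 10 strongest with no homozygous peak, by the nearest coding start. Filled points are libraries, open points at 0 mark a library without a peak, and every homozygous peak lies below 5 while the lowest wild type or heterozygous value is 4.55, at GPC5.

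Of the regions without any homozygous peak, the strongest at a promoter was that of LIG4, the DNA ligase that seals breaks in non-homologous end joining. It spanned chr13:108867596-108868209, with a midpoint 1 bp from a start, and had fold enrichments of 8.94, 8.12 and 7.07 in wild type and 7.03, 6.29 and 6.54 in heterozygous libraries. The 1 Mb around it held 115 to 175 peaks in wild type and heterozygous full lists and 69, 56 and 97 in the homozygous lists. A region in an intron of GPC5, a heparan sulfate proteoglycan of the cell surface, was different in this respect. It spanned chr13:92191367-92193343 at 4.55 to 6.86 fold, had no homozygous peak, and lay in a window with 153 to 215 peaks in the 6 lists and 168, 129 and 163 in the homozygous lists. Further regions without a homozygous peak were chr1:191337881-191338866 (6.99 to 8.11 fold) and chr1:191857752-191858919 (6.88 to 9.89). Their nearest coding start, 789218 and 269256 bp away, was that of RGS18, a regulator of G protein signalling in blood cells. The last was chr5:85137129-85137927 (7.87 to 11.0), 776230 bp from the nearest coding start, that of COX7C, a subunit of cytochrome c oxidase.

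The largest cluster of missing regions, with neighbours at most 100 kb apart, lay at PTPRC. This gene encodes CD45, the receptor tyrosine phosphatase of white blood cells. The cluster spanned 71.0 kb, chr1:198567721-198638685, and held 7 missing regions, which were all the regions there found in the 6 wild type and heterozygous libraries. Over this span, wild type replicates 1 to 3 had 7, 8 and 10 of their 50000 strongest peaks, heterozygous replicates 10, 9 and 9, and homozygous replicates 0, 0 and 0. In the full lists there were 13 to 22 peaks in the 6 libraries and 8, 8 and 7 in the homozygous ones. Fewer of the missing regions themselves held a peak: of the 7 regions, homozygous replicate 1 had a peak at 2, replicate 2 at 1 and replicate 3 at 3.

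In this cluster, 2 regions had no homozygous peak. The one in an intron of PTPRC, chr1:198619008-198620110, had 8.73, 9.86 and 8.76 fold in wild type and 9.43, 7.79 and 7.52 in heterozygous libraries. The intergenic one, 4571 bp from a start of the gene and upstream of it, chr1:198602634-198603398, had 6.42, 6.61 and 6.95 fold in wild type and 7.19, 9.73 and 11.2 in heterozygous libraries. A region with a GATA match joined to a TAL1 part lay further into the gene at chr1:198625417-198626193, at 5.30 to 7.98 fold in the 6 libraries, with a peak of 3.60 fold in homozygous replicate 3 alone.

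The second cluster, chr5:140709746-140972081, covered the gamma protocadherin genes and reached past them to DIAPH1. Clustered protocadherins are adhesion proteins of neurons. Each variable exon has its own promoter, and CTCF and cohesin join chosen promoters to distant enhancers. The cluster had 6 missing regions among 14 found in the 6 libraries. Of the 50000 strongest peaks, 20 to 23 lay here in wild type and heterozygous lists, and 10, 9 and 10 in the homozygous lists.

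Counted over the whole protocadherin family, which was done after these values were seen, 11 regions of the 6 libraries lay within 1 kb of a start. Of these, 6 were missing (54.5%, Wilson 28.0 to 78.7), at PCDHA5, PCDHB3, PCDHGA1, PCDHGA9, PCDHGB7 and PCDHGA12. Over all genes, 1.07% of the regions within 1 kb of a start were missing. At PCDHB3 (chr5:140479786-140480460) the fold enrichment was 7.45, 7.45 and 7.78 in wild type and 5.72, 8.20 and 10.1 in heterozygous libraries, with no homozygous peak. At PCDHGA9 (chr5:140782029-140782983) it was 6.97, 7.05 and 9.82 in wild type and 10.1, 6.44 and 7.74 in heterozygous libraries, against 2.75, no peak and 4.20 in homozygous ones. At PCDHGA1 (chr5:140709746-140710688) the 6 libraries had 5.62 to 8.45 fold, and homozygous replicates 2 and 3 had 3.84 and 3.25. Of the other 5 starts, 2 were in 1 homozygous list, 2 in 2 lists and 1 in all 3. None of the 11 start regions held the searched CTCF motif, an exact string, so a CTCF site with other letters would have gone unseen. A missing region with that motif lay at the 3′ end shared by the gamma genes, chr5:140891308-140892387, at 4.50 to 7.52 fold in the 6 libraries and 3.80, 3.13 and 3.04 in the homozygous ones. The gamma genes overlap and their copies are alike in sequence, so reads may have been placed between them with error.

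The gene desert around the strongest region held the next cluster, chr10:66139526-66280096 with 5 missing regions, and chr10:66408380-66627927 with 4. In each, all regions of the 6 libraries were missing. In the 1 Mb from position 66000001, 10 of 11 such regions were missing, a percentage of 90.9. That window held 16 to 28 of the strongest peaks in wild type and heterozygous lists and 2, 4 and 1 in the homozygous lists. Its full lists held 132 to 213 peaks in the 6 libraries and 47, 52 and 106 in the homozygous ones. The 3 homozygous libraries were thus below the 6 others for peaks of any strength here. Of these 10 regions, 7 held a GATA motif and 4 had no homozygous peak. Over all missing regions the shares were 34.8% and 6.72%. There were 8 clusters of 4, ordered here by their strongest member. The second of them, chr21:25226026-25295179, had all 4 of its regions missing and no coding gene.

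Clusters were the exception. Of the 1653 regions, 1235 had no other missing region within 100 kb, and 418 (25.3%) fell into 181 clusters, of which 142 held 2, 28 held 3 and 11 held 4 or more. The median distance to the nearest missing region was 288 kb, while regions of the 6 libraries as a whole, which are far more numerous, lay a median of 21.6 kb apart. Of 2018 windows of 1 Mb with at least 5 regions of the 6 libraries, 1094 had no missing region and in 12 at least 50% were missing. Those included the ROBO2 window with 4 of 6 and the PTPRC window with 10 of 16.

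Coding genes with a missing region in their body numbered 807, of which 121 held 2 or more and 35 held 3 or more. They were long, with a median length of 137 kb against 50.8 kb for the 9510 genes with a region of the 6 libraries. Long genes have room for more regions, so any smaller set of regions falls more often on long genes. The difference in length was not tested against this. Beside the gamma protocadherins, which share their span, the genes with most missing regions were PTPRC (4 of 5), ROBO2 (4 of 6), KCNT2, a sodium-activated potassium channel (4 of 7), and PRKCH, a protein kinase C (4 of 7).

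Promoters held few missing regions. The strongest, by the lowest percentile over the 6 lists, was that of ARID4A, a partner of the retinoblastoma protein, with 9.37, 9.80 and 13.4 fold in wild type, 12.8, 10.2 and 12.2 in heterozygous libraries and 3.44, 3.99 and 4.80 in homozygous libraries (chr14:58797663-58798187). ALPK1, a kinase that senses bacterial sugars, had 6.45 to 8.25 fold in the 6 libraries and 3.37, 2.55 and 4.59 in the homozygous ones (chr4:113217920-113219083). STPG2, SYT10 and GFOD1 followed by strength.

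At 8 promoters no homozygous full list had any peak. Beside LIG4 and PCDHB3 these were C1orf115, FER, CSNK1G3, MS4A8, CAB39L and IFI27. At FER, a cytoplasmic tyrosine kinase, the fold enrichment was 5.53, 5.92 and 8.74 in wild type and 9.07, 7.23 and 9.43 in heterozygous libraries (chr5:108259959-108260757). At CSNK1G3, a casein kinase, it was 9.74, 9.09 and 5.61 in wild type and 5.31, 8.52 and 8.02 in heterozygous libraries (chr5:122881172-122881687). At IFI27, an interferon-induced gene, it was 5.07, 5.83 and 7.21 in wild type and 6.88, 7.39 and 7.43 in heterozygous libraries (chr14:94576785-94577306). The weakest rank of all but LIG4 lay between 27456 and 49544. These promoters were singled out after their values were seen.

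Gene lists were examined by the regions within a gene or 10 kb of it, read against the 6.14% missing over all regions of the 6 libraries. In the erythroid list 3 of 46 regions were missing. Of these, 2 fell in the annotated span of HBE1, an embryonic beta-like globin, but that model reads far through the olfactory receptor genes. The regions were chr11:5497357-5498117 (5.72 to 8.49 fold), within OR51B5, and chr11:5312380-5312939 (4.75 to 7.33), nearest to OR51B4. The megakaryocyte list, with RUNX1, ERG and GATA2, had 0 of 20 regions missing. The progenitor list had 1 of 14, in an intron of IKZF1, the lymphoid regulator Ikaros (chr7:50436780-50437644, 5.63 to 7.28 fold in the 6 libraries and 3.60 in homozygous replicate 3 alone).

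In the cohesin list 3 of 34 regions were missing, all in the annotated span of STAG2, whose longest model also reads through its neighbours. They lay at SH2D1A, a signalling adaptor of lymphocytes, and TEX13D. The region near the start of SH2D1A (chrX:123479714-123480395) had 4.75 to 7.65 fold in the 6 libraries and 4.03, 3.42 and 3.99 in the homozygous ones. The regions toward TEX13D were chrX:123414067-123414943 (5.94 to 10.2 fold) and chrX:123408198-123409143 (4.68 to 6.52). No missing region lay in the span of the other 14 genes of the list, which include STAG1, RAD21 and CTCF.

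In the adhesion list 4 of 38 regions were missing. They lay in ITGA5 (chr12:54792953-54793632, 4.76 to 5.49 fold, with a CTCF motif), at ITGB1 (chr10:33227105-33228246, 4.67 to 5.44, and chr10:33297302-33298116, 4.86 to 6.80), and in CADM2 (chr3:85616139-85616716, 4.68 to 6.71). ITGA5 and ITGB1 encode the chains of the fibronectin receptor. In the AP-1 and TEAD list 1 of 20 was missing, in an intron of TEAD1 (chr11:12874683-12876262, 4.71 to 6.68 fold).

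The list of neuronal guidance and synapse genes was drawn up with ROBO2 and DAB1 already known, so its count is no independent evidence. It had 15 of 77 regions missing (19.5%), at 7 of 16 genes. Beyond the 4 at ROBO2 there were 4 at DAB1, 3 at CTNNA2, an alpha-catenin of neurons, and 1 each at DCC, the netrin receptor, CNTN4, CTNNA3 and MAGI2. At DAB1 a region 2478 bp from the start of OMA1 (chr1:59014574-59015330) had no homozygous peak, with 3.98 to 6.32 fold in the 6 libraries. The other DAB1 regions were chr1:58669843-58670443 (6.07 to 8.46 fold) and chr1:57482929-57483887 (4.98 to 8.84), and both kept a peak in all homozygous lists. At CTNNA2 they were chr2:80381192-80382071 (5.71 to 7.21), chr2:80397187-80397817 (5.23 to 6.83) and chr2:80597156-80598614 (4.80 to 9.31). Single regions were chr18:51038094-51038632 in DCC (5.44 to 6.38), chr3:2197830-2198625 in CNTN4 (5.13 to 7.40), chr10:69318060-69319371 in CTNNA3 (4.49 to 5.63) and chr7:77993141-77993677 in MAGI2 (5.38 to 8.50). The remaining ROBO2 region was chr3:77330825-77331363 (5.44 to 8.54).

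A CTCF motif lay within 500 bp around the midpoint of 130 missing regions (7.86%, Wilson 6.66 to 9.26), against 4.29% of regions of all 9 libraries and 4.20% of all merged regions. At 2 kb downstream of all merged regions the share was 0.236%. Regions absent from some homozygous lists only had like shares, 10.1% of those in 1 homozygous list and 9.50% of those in 2. Since promoters seldom hold this motif, regions over 1 kb from a start were also compared alone. Of those of the 6 libraries, 125 of 1454 with the motif were missing (8.60%, Wilson 7.26 to 10.1) and 1433 of 16577 without it (8.64%, Wilson 8.23 to 9.08). Distal regions were thus missing in like proportion with and without a CTCF motif.

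The proportions differed with strength. For weakest ranks up to 10000, 0 of 37 and 0 of 65 distal CTCF motif regions were missing in the first 2 classes, which allows up to 9.41% and 5.58% by the Wilson bound. For ranks of 20001 to 30000, 2.27% (8 of 352, Wilson 1.16 to 4.42) were missing with the motif and 5.78% (Wilson 5.08 to 6.57) without. For ranks of 40001 to 50000 the shares were 19.6% (Wilson 16.0 to 23.9) and 17.4% (Wilson 16.3 to 18.6). Missing regions with the motif had a median weakest rank of 42709, against 39687 for the rest.

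CTCF motif regions had a peak in all 3 homozygous full lists about as often as the other missing regions, at 46.2% against 44.8%. Nearly all of them kept a peak in some homozygous list. All but 2 of the 130 were held by at least 1 homozygous full list (98.5%), against 92.8% of the other missing regions. The exceptions were chr14:106877293-106877825, with 4.91, 5.12 and 6.52 fold in wild type and 6.79, 5.87 and 5.12 in heterozygous libraries, and chrX:112503637-112504165, with 8.02, 8.25 and 9.76 in wild type and 10.2, 4.76 and 5.41 in heterozygous libraries. The strongest with the motif, shown above in sequence, was in GRIP1, a scaffold protein of glutamate receptors (chr12:67087563-67088176). It had 8.40, 8.57 and 8.91 fold in wild type, 8.89, 7.58 and 8.04 in heterozygous libraries, and no peak, 3.97 and 4.20 in homozygous ones. At STARD3NL (chr7:38255199-38255803) the values were 8.70, 8.88 and 8.54, then 8.93, 7.79 and 8.31, and 3.44, 2.66 and 3.60 in homozygous libraries.

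Motifs of blood factors were common in the missing regions, as in open regions at large. The searched strings were AGATAA for GATA factors, TGTGGT for RUNX, TGANTCA for AP-1, CCGGAAGT for ETS, CCACACCC for KLF, CATTCCA for TEAD and TTGCNNAA for CEBP factors, on both strands. GATA was found in 34.8% of missing regions and 29.9% of all merged regions. It was in 24.7% of regions found in the 6 wild type and heterozygous libraries, of which 33.0% lay within 1 kb of a start. Windows 2 kb downstream of the missing regions had 32.2%, so the short string is near its background there. RUNX was found in 38.4% (Wilson 36.1 to 40.8), against 32.3% of all merged regions, 27.9% of regions of the 6 libraries and 30.9% downstream. AP-1 was found in 18.0% (Wilson 16.2 to 19.9), near the 17.3% of all regions found in the 6 wild type and heterozygous libraries. All merged regions had 22.9%, and windows downstream of the missing regions had 13.2%. In the 1924 regions present only in homozygous libraries the AP-1 share reached 48.6%. ETS, a motif of promoters, was found in 0.605% of missing regions and 4.21% of regions of all 9 libraries. The joint string for GATA and TAL1, which contains the GATA string, was found in 2.24%, against 1.98% of all merged regions and 0.847% downstream. KLF was found in 4.23%, TEAD in 8.29% and CEBP in 24.6%, each with a share downstream of 4.05%, 8.35% and 26.3%. The NFE2 string, which contains the AP-1 string, was found in 0.786%. A match describes letters and is no measurement of binding.

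The share of missing regions was low close to gene starts and high far from them, with little difference between 1 and 500 kb, and it fell with GC content. Within 1 kb of a start, 1.07% (95 of 8885) of the regions of the 6 libraries were missing. It was 8.14% at 1 to 10 kb, 8.11% at 10 to 50 kb, 7.68% at 50 to 100 kb and 9.34% at 100 to 500 kb. Past 500 kb it reached 17.8% (114 of 640, Wilson 15 to 21). Among distal regions the share was 21.5% below a GC content of 35% and fell in every class to 5.42% at 55% or more. The higher share past 500 kb was seen on both sides of a GC content of 45%. Below 45% GC, 23.8% (63 of 265) were missing past 500 kb and 11.7% at 1 to 500 kb. At 45% or more, 13.6% (51 of 375) and 6.29% were missing. The missing regions had a median GC of 44.6%, against 56.2% for regions of all 9 libraries. The median GC of the 50000 strongest peaks was 49.0% to 49.8% in wild type and heterozygous libraries and 49.6% to 49.8% in homozygous ones, and its part in these shares was not tested.

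**Figure D4:**
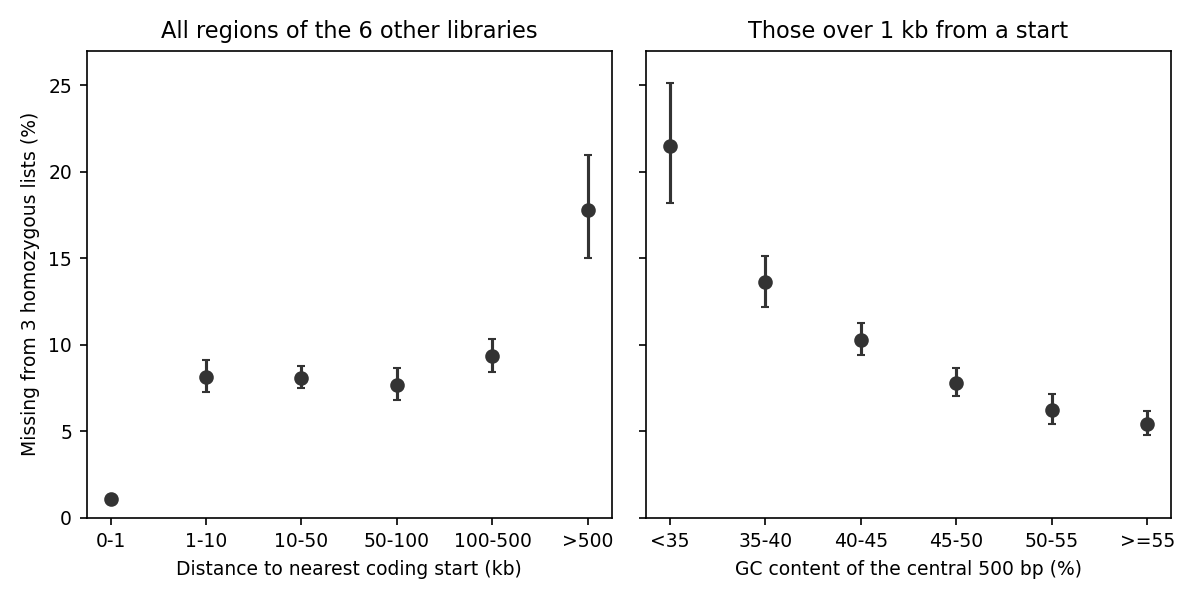
Percentage of regions of the 6 wild type and heterozygous libraries that were missing from all 3 homozygous libraries, by distance to the nearest coding start in kb (left, all regions) and by GC content of the central 500 bp (right, regions over 1 kb from a start). Points are percentages and bars 95% Wilson intervals; the left panel runs from 1.07% to 17.8% and the right from 21.5% down to 5.42%.

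Chromosomes also differed. The share missing was 8.58% on chromosome 4 (132 of 1539), 8.27% on chromosome 13 and 7.82% on X, and 0.963% on chromosome 19 (7 of 727), 1.45% on 22 and 1.69% on 17 (9 of 534). Chromosomes 19 and 17 have a high GC content in their regions, with medians of 63.6% and 62.0%, against 47.8% on chromosome 4. The order by GC content did not hold throughout: chromosome 8, with a median of 50.4%, had 4.26% missing, less than chromosomes 13 and X with medians of 51.1% and 53.2%. Chromosome 6, with 48.4%, had 6.57% missing. Chromosomes 19 and 17 also held more of the strongest peaks in homozygous libraries. Chromosome 19 took 2.26% ± 0.0627 of them in wild type lists, 2.45% ± 0.0291 in heterozygous lists and 3.10% ± 0.0802 in homozygous lists (mean ± SD, n = 3 libraries). Chromosome 17 took 1.86% ± 0.0628, 2.16% ± 0.0560 and 2.69% ± 0.00808. A higher mean in homozygous than in wild type lists was also seen on chromosomes 15, 16, 20 and 22, with 4.63%, 3.12%, 2.89% and 1.45% missing. It was seen too where the share missing was near that over all chromosomes. Chromosome 18 took 1.63% in wild type and 1.96% in homozygous lists, with 5.90% missing. Chromosome 21 took 0.827% and 1.04%, with 6.58% missing. The part of these shares in the missing regions was not tested.

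**Figure D5:**
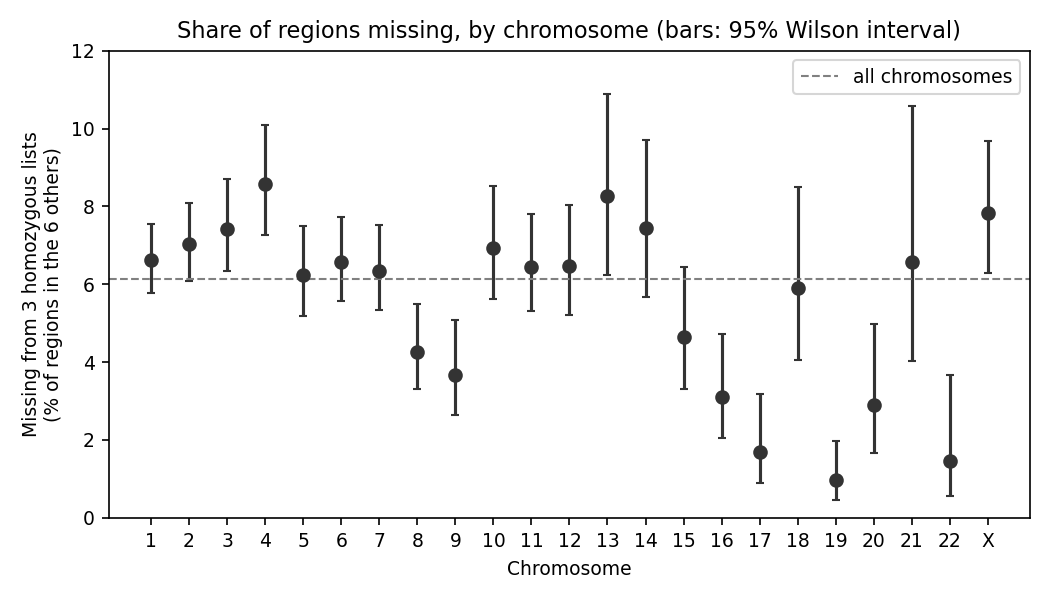
Percentage of regions of the 6 wild type and heterozygous libraries that were missing from all 3 homozygous libraries, for chromosomes 1 to 22 and X. Points are percentages, bars 95% Wilson intervals and the dashed line is the value over all chromosomes, 6.14%; chromosomes 16, 17, 19, 20 and 22 lie below it with their whole interval, as do 8 and 9.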

How the data were processed

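Peak lists of 9 ATAC-seq libraries were used, 3 per genotype, grouped by the genotype in the labels. The submitters' processing notes name cutadapt, Bowtie2 2.2.9, Picard, MACS2 2.1.0 and the build hg19 or GRCh37; settings, and whether reads were shifted for Tn5, are not given in the sources used here. Each library has its own list. Whether reads of some libraries were mixed before peak calling cannot be told from the lists. The authors deposited for each peak a fold enrichment, a linear ratio, with the −log10 of a p-value and of a q-value. In the deposited columns 0 rows ran past a GRCh37 chromosome end. No counts are held, so the depth is unknown.

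The 50000 rows with the highest −log10 p per list were merged at 1 bp overlap with Python 3.11.15, numpy 2.4.6 and pandas 2.3.3. The best overlapping row gave a region's rank and fold. Annotation was GENCODE release 44 on GRCh37, with 78394 coding start sites, and distances run from the region's midpoint. A gene and 10 kb on each side counted for the gene lists. Motifs were searched with pysam 0.24.0 in 500 bp around the midpoint on both strands, and 2 kb downstream. Intervals are Wilson 95%. The scripts were tested on simulated data.

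Named regions were the 10 with the highest lowest within-list percentile of −log10 p over the 6 lists, the 10 and the CTCF motif regions without a homozygous peak, the 5 largest clusters (of equal size, those with the strongest member), the 5 genes with most members, and every member at a listed gene. Members, lists and rules were chosen with earlier results of these data known. Alternatives covered list length, ranking, overlap, windows and left-out libraries. Some genes entered the counts and are not reported here.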

Additional observations from a re-analysis of the deposited data

How the results depend on the processing

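No test was made, so no call could be lost. With the 20000, 30000 or all peaks of each list, 634, 979 and 3410 regions met the rule, and 111 when a homozygous full list could hold no peak. Leaving out each library gave 1760 to 2451 regions, since the rule then asks less. The share near a start was 10.1% with 20000 peaks, 7.66% with 30000, 3.46% with all, 7.61% with −log10 q of at least 5, 7.21% for regions without any homozygous peak and 9.92% within 2.5 kb, with 5.54% to 7.21% when leaving out each library. The share with a CTCF motif was 6.44% with 30000 peaks, 4.88% with 100000, 1.94% with all, 1.80% for regions without any homozygous peak and 6.41% in a window of 200 bp, with 7.58% to 8.94% when leaving out each library. The share with a peak in a homozygous full list was 98.3% with 20000 peaks, 97.8% with 30000, 73.5% with 100000 and 97.5% with −log10 q of at least 5, with 85.9% to 93.8% when leaving out each library, the lowest without homozygous replicate 3. That share is set by construction, and not given, with all peaks or absence judged in the full lists. Ranking by fold, an overlap of 250 bp and 1 library of each pair that shares intervals moved these values by less than their interval, and counts by less than 1.5 times. No paired analysis was possible because the results come from no test. The lists hold no reads, so a weak peak and a deeper library cannot be told apart, and absence from a list is absence from what the caller kept.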

Other observations

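The 6 further clusters with 4 missing regions each were described after their values were seen. At AK4, a mitochondrial adenylate kinase, 4 of 6 regions of the 6 libraries were missing over chr1:65540598-65681699. The 50000 strongest peaks numbered 8 to 11 there in wild type and heterozygous lists and 3, 4 and 4 in the homozygous lists, while full lists held 19 to 24 and 13, 17 and 27. At NMBR and VTA1 (chr6:142459929-142529228) 4 of 5 were missing, with 6 to 8 strong peaks in the 6 lists and 1, 2 and 1 in the homozygous ones. At a stretch of MS4A genes with PTGDR2, a prostaglandin receptor, 4 of 7 were missing (chr11:60468592-60639288), with 8 to 12 strong peaks and 2, 7 and 6. At TMEFF1 and CAVIN4 (chr9:103175265-103365082) 4 of 8 were missing, with 10 to 13 and 2, 4 and 7. At TCAF1 and TCAF2 (chr7:143401198-143590164) 4 of 14 were missing, with 17 to 22 strong peaks and 11, 11 and 14, and full lists held 40 to 49 peaks and 44, 32 and 48. At chr7:135733739-135827824, with no coding gene, 4 of 9 were missing, with 10 to 17 strong peaks and 4, 7 and 6, and full lists held 23 to 32 and 29, 21 and 26. In full lists, AK4 had homozygous replicates 1 and 2 below the 6 others and replicate 3, the longest list, above them. At both chromosome 7 clusters replicates 1 and 3 lay within the range of the others and replicate 2 below it.

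Of the 5 windows of 1 Mb with the highest shares missing, 4 held no coding gene and 1 held ROBO2 alone. Windows with more genes followed: from position 5000001 on chromosome 4, with 6 coding genes, 3 of 5 regions were missing, and from position 196000001 on chromosome 1, with KCNT2 and the complement factor H genes, 7 of 12. From position 191000001 on chromosome 1, 4 of 5 regions were missing, with 121 to 242 peaks in the full lists of the 6 libraries and 63, 72 and 123 in the homozygous lists. From position 21000001 on chromosome 21, 4 of 6 were missing, with 33 to 98 peaks and 26, 26 and 51. In both of these windows the homozygous lists overlapped the others through replicate 3.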
